A study of Mus musculus with 35 samples.

Results

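The early response of the liver to a tumor that goes on to cause cachexia was set against the response to a tumor that does not. Open chromatin of hepatocyte nuclei was measured by ATAC-seq, and for each region the effect of a C26 tumor before weight loss (pre-cachexia minus PBS) was taken, on the log2 scale, minus the effect of a weight-stable NC26 tumor (tumor minus PBS). All 16 libraries of the 4 groups concerned were used, of 35 in the series, and all 177904 regions of the merged table, of which 177251 passed a filter on low values. Each group held 4 libraries, and the labels give every library its own animal, so the spread is that between animals.

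All animals of the 4 groups were BALB/c mice of the genotype CAG-Sun1/sfGFP, Albumin-Cre, PBS controls included. In such mice the nuclear envelope of cells that have expressed Cre from the Albumin promoter carries a GFP tag, and tagged nuclei are pulled out of liver homogenate with beads, a method called INTACT. C26 is a colon carcinoma line whose grafts cause cachexia, a wasting of muscle and fat, and the study counted an animal as cachectic past 10% loss of body weight. Pre-cachexia animals carried a C26 tumor, NC26 animals a tumor described as weight-stable, and each cohort had its own PBS group. Collection was at zeitgeber time 9, about 25000 nuclei were used per library, and days since implantation and tumor mass were not given in the sources used here. Thus the stage and size of both tumors cannot be told apart from their kind.

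Transposase cuts DNA where nucleosomes are displaced, so the number of tags in a region follows how open it is, and open enhancers and promoters are commonly bound by transcription factors. In a tumor-bearing animal, cytokines such as IL-6 reach the liver and act through STAT3, NF-kB and C/EBP factors on acute phase genes, whose products are secreted into plasma. Metallothioneins, small proteins that bind zinc and copper, are switched on in the same state by the metal-sensing factor MTF1, by STAT3 and by glucocorticoids.

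The stretch upstream of 4 start sites is shown because Mt1 and Mt2 opened in both arms, and because Lcn2 and Saa2 are acute phase genes whose signal was uneven between pre-cachexia animals. Each line gives the 250 bases before the start site, 5′ to 3′ on the gene's strand, from RefSeq (GRCm38.p6, the assembly of mm10). Of the 24 genes whose promoter regions were followed, 17 had an entry. Capitals in Mt2 and Mt1 mark the core of the metal response element (TGCACNC or TGCGCNC, either strand), and those in Lcn2 and Saa2 mark a C/EBP-type motif (TTGCNNAA, either strand). 
Mt2: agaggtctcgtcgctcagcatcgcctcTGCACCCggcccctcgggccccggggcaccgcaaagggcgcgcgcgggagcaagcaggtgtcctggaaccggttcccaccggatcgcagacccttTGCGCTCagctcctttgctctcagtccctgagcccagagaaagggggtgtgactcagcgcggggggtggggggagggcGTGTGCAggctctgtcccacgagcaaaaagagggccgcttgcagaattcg
Mt1: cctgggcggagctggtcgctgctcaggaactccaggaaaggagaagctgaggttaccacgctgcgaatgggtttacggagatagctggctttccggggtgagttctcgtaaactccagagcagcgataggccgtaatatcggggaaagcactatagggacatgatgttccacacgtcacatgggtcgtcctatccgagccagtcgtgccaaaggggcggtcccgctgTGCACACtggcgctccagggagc
Lcn2: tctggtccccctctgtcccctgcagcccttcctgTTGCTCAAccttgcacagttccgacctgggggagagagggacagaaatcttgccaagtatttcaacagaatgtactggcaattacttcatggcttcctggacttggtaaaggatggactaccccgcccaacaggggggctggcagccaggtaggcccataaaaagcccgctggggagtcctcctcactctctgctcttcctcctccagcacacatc
Saa2: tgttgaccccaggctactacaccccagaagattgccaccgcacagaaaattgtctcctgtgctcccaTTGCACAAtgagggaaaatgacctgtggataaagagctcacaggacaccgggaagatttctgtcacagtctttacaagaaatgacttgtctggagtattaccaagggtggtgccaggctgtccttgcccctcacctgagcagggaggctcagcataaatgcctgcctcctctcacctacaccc

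The Mt2 stretch (chr8:94172368-94172617, plus strand) held 3 matches of the metal response core and that of Mt1 (chr8:94178839-94179088, plus strand) held 1. The metal response core occurred in 21.4% of all 32851 promoters of this length in the table. Lcn2 (chr2:32387740-32387989, minus strand) and Saa2 (chr7:46751583-46751832, plus strand) held 1 C/EBP-type match each, against 9.56% of all promoters with at least 1. Mt2 also held 1 C/EBP-type match, which is not marked. A STAT-type motif (TTCNNNGAA), found in 7.02% of all promoters, was in none of these stretches. A match is a run of letters and not evidence that a factor was bound.

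Across the genome the difference of effects was small against the spread between animals. Only 2 regions were called higher in the C26 arm (0.00113% of 177251; limma, Benjamini-Hochberg adjusted p under 0.05) and none lower (0.0%). Both lay on chromosome 3, where a tumor effect and a difference in genetic background cannot be told apart, as set out with their values. Without adjustment, 6689 regions were higher (3.77%) and 3261 lower (1.84%) at p under 0.05. On read ends recovered from the table, edgeR called 1 region higher (0.000564%) and 0 lower, and DESeq2 called 7 higher (0.00395%) and 3 lower (0.00169%). The 95% interval of the difference reached a median of 0.85 to either side on the log2 scale over all regions, or 1.8-fold. Among the 88626 regions with average signal at or above the median it was 0.60, or 1.52-fold. These intervals are not adjusted for the number of regions, so they are not the limit of detection. With 4 animals per group the adjusted test mostly needed larger differences. A region nearest Kank1 with a difference of 1.72 ± 0.37 did not pass (limma, adjusted p = 0.457).

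Each arm by itself showed more. In C26 pre-cachexia, 1865 regions rose (1.05%) and 458 fell (0.258%) against PBS. With NC26 tumors 243 rose (0.137%) and 72 fell (0.0406%). The 2 arms share no library, so the NC26 values of regions picked in the C26 arm are a separate measurement. Of the 1865 regions that rose in pre-cachexia, 92.3% had an NC26 effect above 0, against 45.1% of all regions tested. Their median NC26 effect was 0.49, beside a median of 1.17 in the arm that picked them. Of the 458 that fell, 6.55% had an NC26 effect above 0, with a median of -0.41 beside -1.05.

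In the reverse direction the medians were close for regions that rose but not for those that fell. The 243 regions that rose with NC26 tumors had a median effect of 1.18 there and of 1.04 in pre-cachexia, and 98.8% of them were above 0 in pre-cachexia (50.7% of all regions). A set of 168 regions rose in both arms, which is 9.01% of those that rose in pre-cachexia and 69.1% of those that rose with NC26. The median of a picked set is raised in the arm that picked it, so the excess of 1.17 over 0.49 is a description and no test of the difference. The 72 regions that fell with NC26 tumors had a median of -1.56 there and of -0.39 in pre-cachexia, and 9 of them fell in both arms. This set was not stable. Without NC26 tumor replicate 1, the library with 3.47 M tags, 7 regions fell and 70 rose with NC26. With library weights 12 fell and 122 rose, and in edgeR 9 fell and 136 rose. Over all regions the 2 effects had a Pearson r of 0.29, and of 0.46 over the 88626 with higher signal. Regions are not independent replicates, and within an arm all of them share 4 PBS libraries.

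**Figure D1:**
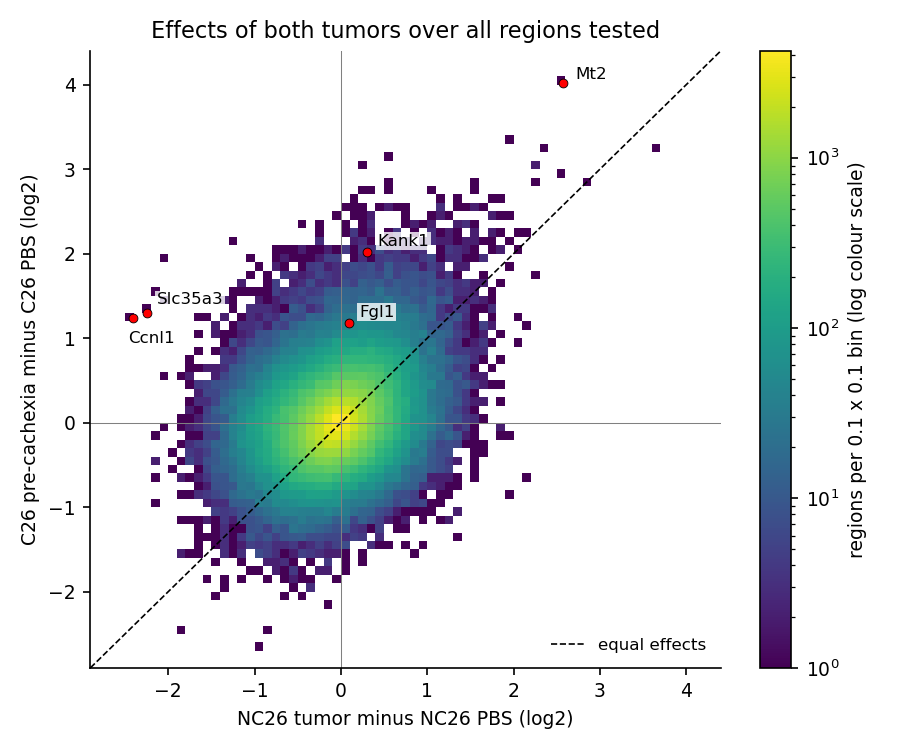
Effect of an NC26 tumor (horizontal axis, log2) against the effect of a C26 tumor in pre-cachexia (vertical axis, log2) for the 177251 regions tested, counted in bins of 0.1 on a logarithmic colour scale. Most regions lie near 0 in both arms; Mt2 lies at the upper right, Kank1 and Fgl1 near 0 on the horizontal axis, and the called Slc35a3 and Ccnl1 regions are positive for C26 and negative for NC26.

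Regions were also chosen by a contrast between C57BL/6N cohorts of the series, which takes none of the 16 libraries into its fold change, although the spread and the library series term came from the same model of all 35. There the effect of the cachexia-inducing 8025 tumor exceeded that of the weight-stable MC38 tumor at 1612 regions (0.909%) and fell short at 1390 (0.784%). At the 1612 regions the median effect was 0.52 in pre-cachexia and 0.34 with NC26, and the median difference 0.21 (0.05 over all regions). A positive difference was found at 66.7% of them, against 55.5% of all regions. At the 1390 regions the medians were -0.16 and -0.19, and the median difference was 0.03. Neither called region was in either set.

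Metallothionein promoters opened in both arms. At the Mt2 promoter (chr8:94172469-94172869, 51 bp from the start site) C26 PBS libraries had 14.1, 8.77, 6.88 and 4.33 normalised tags, that is the authors' tags per 10 M after TMM scaling, and pre-cachexia libraries had 232, 104, 151 and 114. NC26 PBS libraries had 7.10, 7.91, 6.36 and 9.16 and NC26 tumor libraries 99, 35.4, 74.3 and 23.9. Neither tumor group overlapped its PBS group, and every pre-cachexia library was above every NC26 tumor library. The region rose by 4.02 ± 0.39 (log2, SE) in pre-cachexia (adjusted p = 1.54e-06) and by 2.57 ± 0.39 with NC26 (adjusted p = 0.00236; limma). The difference was 1.44 ± 0.55 with a 95% interval of 0.31 to 2.57, which over all regions did not pass (unadjusted p = 0.0144, adjusted p = 0.874).

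Mt1, its neighbour with the same function, had 110, 60.5, 37.5 and 58.9 normalised tags at its promoter in C26 PBS and 334, 231, 248 and 219 in pre-cachexia. NC26 PBS libraries had 39.9, 58.0, 56.4 and 78.7 and NC26 tumor libraries 272, 160, 185 and 101. Both tumor groups were again clear of their PBS groups, but they overlapped each other. The rises were 2.02 ± 0.28 and 1.56 ± 0.28 (adjusted p = 0.000177 and 0.0132), and the difference 0.46 ± 0.39 with an interval of -0.34 to 1.27. Another region 4001 bp downstream of the Mt1 start, chosen after its values were seen, had 96.8, 45.7, 61.9 and 46 tags in pre-cachexia and 38.8, 24.8, 25.9 and 15.4 with NC26, against 10.6 to 17.4 and 10.9 to 19.6 in the PBS groups. It rose in pre-cachexia (2.06 ± 0.25, adjusted p = 2.67e-06) and did not pass with NC26 (0.81 ± 0.25, adjusted p = 0.195), and its difference was 1.25 ± 0.35 (unadjusted p = 0.00092, adjusted p = 0.801).

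**Figure D2:**
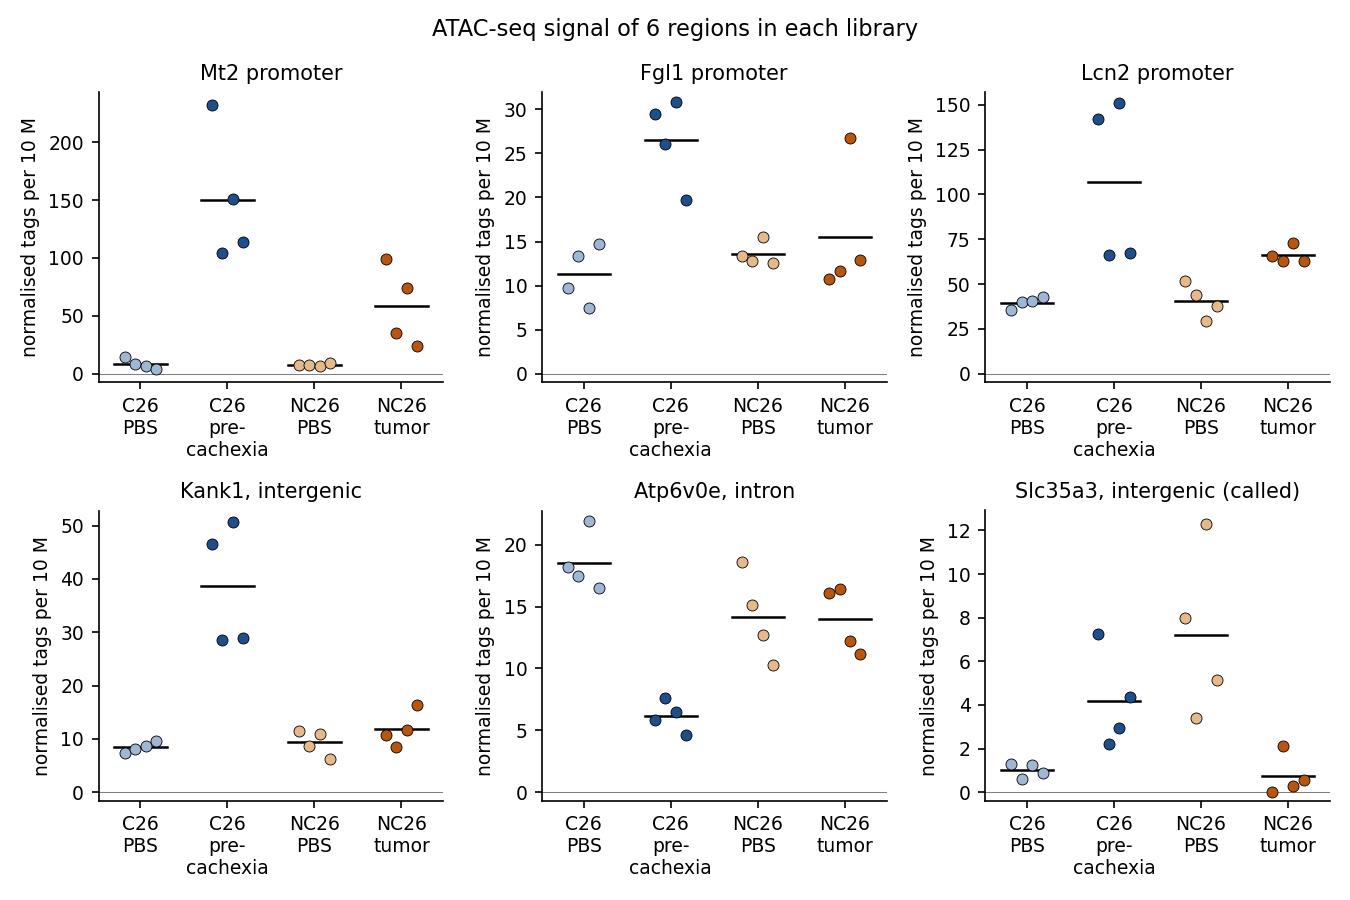
Normalised tags per 10 M (vertical axis, linear, with a line at 0) of 6 regions in each of 16 libraries, by group; each point is 1 library and each line a group mean. At Mt2 both tumor groups stand above their PBS groups, at Fgl1 and Kank1 the pre-cachexia libraries stand apart from most others, at Lcn2 2 pre-cachexia libraries are high, at Atp6v0e the pre-cachexia group is low, and at Slc35a3 the 2 PBS groups differ.

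Among the 24 promoter regions followed whether or not they passed, none was called in the difference (adjusted p from 0.864 to 0.998), where 0.00113% of all regions were. In pre-cachexia 7 rose (1.05% of all regions did), and with NC26 2, those of Mt1 and Mt2 (0.137% of all regions). The panel was chosen with earlier results of these data known, so these counts are a description. The difference was positive at 19 of 24 promoters (55.5% of all regions), and at 17 both effects were positive. In 3 of them, Mt2, Fgl1 and Fetub, the interval excluded 0. These intervals reached from 0.22 to 1.59 on the log2 scale to either side.

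Fgl1, a liver-secreted protein of the fibrinogen family that IL-6 induces, had the lowest p of the panel. Its promoter (chr8:41214917-41215317) had 9.75, 13.4, 7.50 and 14.7 normalised tags in C26 PBS and 29.5, 26.1, 30.8 and 19.7 in pre-cachexia. NC26 PBS had 13.3, 12.8, 15.5 and 12.6, and NC26 tumor libraries had 10.7, 11.6, 26.8 and 12.9. Pre-cachexia libraries were all above their controls, whereas 1 NC26 tumor library stood far above the other three, which lay at or below the PBS range. Fgl1 rose by 1.18 ± 0.24 in pre-cachexia (adjusted p = 0.00487) and its NC26 effect was 0.09 ± 0.24. The difference was 1.08 ± 0.34 (interval 0.39 to 1.78, unadjusted p = 0.00282, adjusted p = 0.864). Another region 1087 bp from the Fgl1 start, chosen after its values were seen, rose in both arms. Its effects were 1.64 ± 0.22 in pre-cachexia and 1.08 ± 0.22 with NC26 (limma, adjusted p = 1.83e-05 and 0.0182). It had 55.0 to 76.6 tags in pre-cachexia and 37.0 to 66.9 with NC26, against 15.4 to 30.3 and 20.3 to 27.1 in the PBS groups. The difference there was 0.56 (-0.06 to 1.18).

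The promoter of Fetub, which encodes the plasma protease inhibitor fetuin-B, rose by 0.53 ± 0.10 in pre-cachexia (adjusted p = 0.00192), and its difference was 0.33 ± 0.14 (interval 0.05 to 0.62). An intronic region 409 bp from the same start, chosen after its values were seen, gave larger contrasts. It had 10.8, 6.43, 6.56 and 14.3 tags in C26 PBS, 138, 83.6, 112 and 76.7 in pre-cachexia, 21.3, 19.2, 19.6 and 11.4 in NC26 PBS and 130, 64.4, 77.2 and 40.7 with NC26 tumors. It rose in both arms, by 3.33 ± 0.40 (adjusted p = 3.71e-05) and 1.98 ± 0.40 (adjusted p = 0.0356). The tumor groups overlapped each other, and the PBS groups differed by -1.04, so most of the difference of 1.35 ± 0.57 lay between the controls.

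Acute phase promoters split the pre-cachexia group. Lcn2, an iron-siderophore binding protein, had 142, 66.4, 151 and 67.2 normalised tags in pre-cachexia replicates 1 to 4, against 35.7 to 42.9 in C26 PBS, 29.6 to 51.9 in NC26 PBS and 62.6 to 72.8 with NC26. Replicates 2 and 4 thus lay in the NC26 range and replicates 1 and 3 above it. The rise in pre-cachexia was 1.3 ± 0.21 (adjusted p = 0.000616), the NC26 effect 0.71 ± 0.21 (adjusted p = 0.191) and the difference 0.59 ± 0.30 (interval -0.02 to 1.21). Serum amyloid A genes, which encode major acute phase apolipoproteins, showed the same 2 libraries. Saa2 had 65.9, 14.9, 75.5 and 5.50 tags in pre-cachexia against 3.75 to 9.06 in C26 PBS and 7.30 to 17.5 with NC26, and Saa1 had 74.0, 16.2, 86.4 and 13.9. The Saa2 difference of 1.27 ± 0.77 and the Saa1 difference of 0.62 ± 0.59 had intervals that included 0. Saa1 and Saa2 are near-identical copies, so their reads may have been shared between them.

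Other acute phase promoters had narrower intervals around small differences. Orm1, a plasma drug carrier, rose by 0.45 ± 0.11 in pre-cachexia (adjusted p = 0.0265), and its difference was 0.13 with an interval of -0.19 to 0.45. Hp, the hemoglobin scavenger haptoglobin, differed by 0.22 (-0.22 to 0.67), and Lbp, which presents endotoxin, by 0.02 (-0.35 to 0.38), a sign that changed under other scalings. Lbp was also highest in pre-cachexia replicates 1 and 3, with 188 and 228 tags against 119 and 131 in replicates 2 and 4.

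For the factors that read cytokine signals, promoters were open in all groups and the difference was close to 0. Stat3 differed by 0.08 (-0.15 to 0.30), Cebpb by -0.02 (-0.35 to 0.32, sign not stable under other settings) and Cebpd by 0.11 (-0.16 to 0.38). The feedback inhibitor Socs3 differed by 0.18 (-0.29 to 0.66) and the NF-kB partner Bcl3 by 0.25 (-0.18 to 0.68). Junb, an AP-1 subunit, rose by 0.28 ± 0.08 in pre-cachexia (adjusted p = 0.0435) and differed by 0.15 (-0.07 to 0.36), while Fos differed by -0.15 (-0.56 to 0.27) and the interferon factor Irf1 by -0.15 (-0.62 to 0.33). Beside these, some regions chosen after their values were seen rose in both arms by like amounts, and others did not. The Fos upstream region 337 bp from the start had 106 to 141 tags in pre-cachexia and 112 to 143 with NC26, against 63.4 to 84.9 and 65.5 to 85.4 in the PBS groups, and rose by 0.84 ± 0.12 and 0.74 ± 0.12 (adjusted p = 3.67e-05 and 0.00114). A 3' region of Socs3 rose by 1.34 ± 0.20 and 1.04 ± 0.20 (adjusted p = 6.4e-05 and 0.00991), and an intronic region of the TNF receptor gene Tnfrsf1a by 1.14 ± 0.21 and 1.28 ± 0.21 (adjusted p = 0.00166 and 0.00149). A neighbouring Irf1 region, 116 bp from the start, rose by 0.65 ± 0.11 and 0.70 ± 0.11 (limma, adjusted p = 0.000783 and 0.00114). A region 11393 bp from Cebpa rose by 1.46 ± 0.31 in pre-cachexia (adjusted p = 0.0109), with an NC26 effect of 0.33 ± 0.31 (adjusted p = 0.762). For a region 49769 bp from the receptor gene Il1r1 the effects were 1.82 ± 0.29 and 1.11 ± 0.29 (adjusted p = 0.00103 and 0.132). Their differences were 1.13 (0.23 to 2.03) and 0.70 (-0.15 to 1.55), raised by the choice on pre-cachexia p.

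Metabolic and clock promoters of the panel also gave intervals that included 0. Igfbp1, an insulin-repressed binding protein of insulin-like growth factors, differed by 0.24 (-0.24 to 0.72), and Pck1, a key enzyme of gluconeogenesis, by 0.23 (-0.01 to 0.47). The clock repressors Nr1d1 and Per2 differed by 0.07 (-0.20 to 0.35) and 0.17 (-0.06 to 0.40). Car3, a carbonic anhydrase under growth hormone control, differed by -0.41 (-1.38 to 0.56). Mup3, a urinary pheromone carrier that growth hormone maintains, had 85.4, 70.2, 70.6 and 64.1 tags in C26 PBS and 39.8, 45.7, 39.7 and 45.2 in pre-cachexia, with no overlap. NC26 PBS had 73.2, 79.8, 72.3 and 72.4 and NC26 tumor libraries 89.6, 73.4, 64.6 and 49.7, which overlapped. Neither effect passed (-0.75 ± 0.23, adjusted p = 0.1, and -0.13 ± 0.23), and the difference was -0.62 (-1.28 to 0.04). Another Mup3 region, 4628 bp downstream and chosen after its values were seen, fell in pre-cachexia by 1.89 ± 0.27 (adjusted p = 3.16e-05), from 18.2 to 51.3 tags down to 7.99 to 9.85. With NC26 it had 12.9 to 29.4 tags against 28.6 to 39.9 in PBS, an effect of -0.67 that did not pass, and its difference was -1.22 ± 0.38 (adjusted p = 0.864). Mup genes are a family of near-identical copies, so reads of these regions are uncertain.

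**Figure D3:**
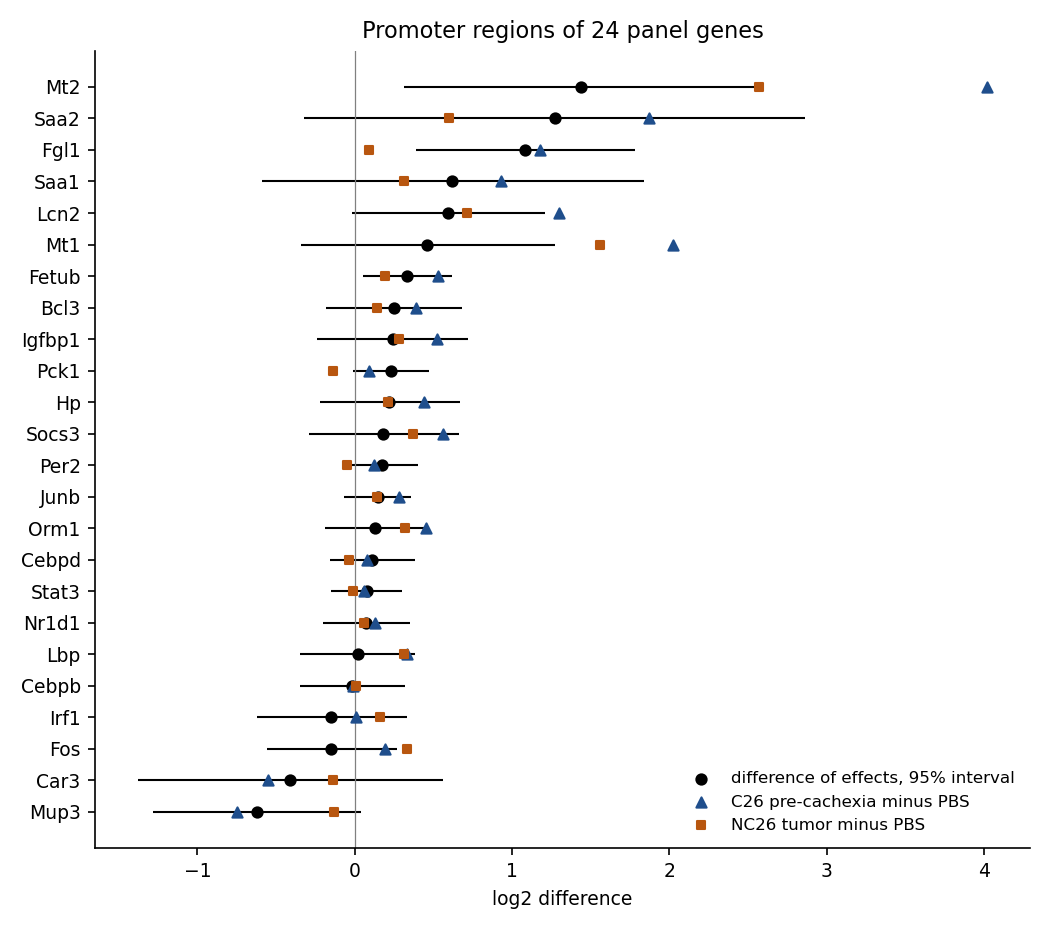
Promoter regions of the 24 panel genes, sorted by the difference of effects (black points with 95% intervals, log2), with the C26 pre-cachexia effect (triangles) and the NC26 tumor effect (squares) beside it. Only the intervals of Mt2, Fgl1 and Fetub lie above 0, and both single effects lie far to the right for Mt2 and Mt1.

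The 2 called regions were of another kind, with low signal. One, intergenic at chr3:116718346-116718746 and 6266 bp from the start of Slc35a3, a Golgi nucleotide-sugar transporter gene, had 1.29, 0.587, 1.25 and 0.861 normalised tags in C26 PBS and 7.24, 2.23, 2.96 and 4.35 in pre-cachexia. NC26 PBS libraries had 7.99, 3.39, 12.3 and 5.15 and NC26 tumor libraries 0.0, 2.11, 0.295 and 0.565. The groups of each arm did not overlap, but in opposite directions, and NC26 PBS lay above C26 PBS. The difference was 3.55 ± 0.54 (adjusted p = 0.00607), made of 1.3 in pre-cachexia, which did not pass (adjusted p = 0.0779), and a fall by 2.25 with NC26 (adjusted p = 0.00226). The PBS groups differed by -1.88, about as much as either arm.

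The other, intergenic at chr3:65988658-65989058 and 30609 bp from the start of Ccnl1, a cyclin gene of RNA processing, had 1.02, 0.881, 3.13 and 1.73 tags in C26 PBS and 8.91, 2.23, 2.96 and 9.55 in pre-cachexia, which overlapped. NC26 PBS had 3.55, 3.77, 16.4 and 8.01, and NC26 tumor libraries 0.0, 0.0, 0.581 and 1.69. Its difference was 3.65 ± 0.57 (adjusted p = 0.00607), of which 1.24 came from pre-cachexia (adjusted p = 0.122) and -2.41 from NC26 (adjusted p = 0.00149). Both regions were below the median signal (3.47 on the log2 scale) and so outside the rule for named regions, and they are named because only 2 were called. Without NC26 PBS replicate 3 neither was called (adjusted p = 0.0632 each), and without pre-cachexia replicate 4 the Ccnl1 region was not (adjusted p = 0.0508).

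Both lay on chromosome 3, and so did many regions below the threshold. Of the 217 regions with unadjusted p under 0.001 (170 higher, 0.0959%; 47 lower, 0.0265%), 45 were on chromosome 3, or 20.7%, although it held 5.30% of regions tested. No other chromosome held more than 8.76% of them. Of the 45, 40 had a positive difference, spread over 32 nearest genes and from 18.1 to 158 Mb along the chromosome. In all 40 the pre-cachexia effect was above 0 (median 0.90), and in 35 the NC26 effect was below 0 (median -0.95). Because the difference picked these regions, their levels are a description. Median log2 signal over the 40 regions was 2.56 to 2.83 in C26 PBS libraries, 3.25 to 3.75 in pre-cachexia, 3.33 to 3.79 in NC26 PBS and 2.38 to 3.15 with NC26 tumors. In the C57BL/6N libraries, which the choice did not use, it was 3.62 to 4.28, above all C26 PBS and NC26 tumor libraries. C26 cachexia libraries, also unused by the choice, had 2.92 to 3.66. At the 130 positive regions on other chromosomes, cachexia libraries had 3.81 to 3.87, near the 3.94 to 4.19 of pre-cachexia and above the 2.62 to 2.99 of C26 PBS.

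The regions that DESeq2 alone called had signal in some BALB/c libraries only. Its 3 lower calls were neighbouring regions nearest Nhsl1 on chromosome 10, each at 0 in 15 of the 16 libraries. C26 PBS replicate 2 had 37.4, 56.1 and 22.5 tags there, and the 15 C57BL/6N libraries 32.5 to 85.9, 57.5 to 144 and 41.9 to 120. Thus 1 library made these calls, and their fitted log2 differences of -24.21 to -26.71 are no measure of size. Of the 7 higher calls 3 were nearest 1500004A13Rik on chromosome 3, at 0 in 11 of 16 libraries and at 3.1 to 12.9 tags in pre-cachexia replicates 1 and 4 and NC26 PBS replicates 1, 3 and 4. A Camk2b region on chromosome 11 had 45.4 and 39.1 tags in pre-cachexia replicates 2 and 4 and 41.8 in NC26 PBS replicate 4, against 0.0 to 4.17 in the other 13 and 38.4 to 83.6 in C57BL/6N libraries. The C57BL/6N libraries also had signal at the Slc35a3 region (4.35 to 10.5 tags) and the Ccnl1 region (6.35 to 28.2). The labels give all 16 animals as BALB/c. Whether they shared 1 genetic background at these places and along chromosome 3 was not tested. Therefore a tumor effect and a difference in background cannot be told apart at the 2 called regions or at the other chromosome 3 regions, those of Rab33b and Adgrl2 included.

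**Figure D4:**
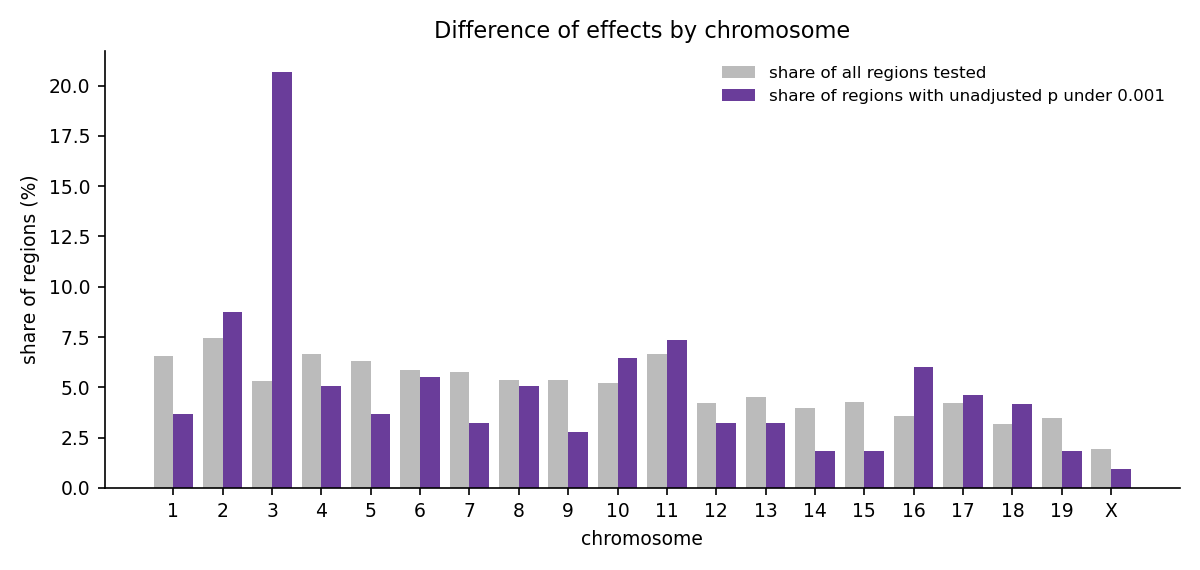
Share (%) of regions on each chromosome among all regions tested (grey) and among the 217 with unadjusted p under 0.001 in the difference of effects (purple). Chromosome 3 holds 20.7% of the latter and 5.30% of the former.

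Regions with at least median signal, averaged over all 35 libraries, and the lowest p did not pass, but show where the arms came closest to differing. Kank1, a gene of an adaptor protein of the cell cortex, had an intergenic region 14489 bp from its start (chr19:25222286-25222686) with 7.44, 8.18, 8.75 and 9.53 tags in C26 PBS and 46.5, 28.6, 50.6 and 29 in pre-cachexia. NC26 PBS had 11.5, 8.66, 10.9 and 6.29 and NC26 tumor libraries 10.7, 8.45, 11.6 and 16.3. All pre-cachexia libraries stood clear of the other 12. The region rose by 2.02 ± 0.26 in pre-cachexia (adjusted p = 6.85e-06), its NC26 effect was 0.30 ± 0.26, and the difference was 1.72 ± 0.37 (adjusted p = 0.457). In the C57BL/6N cohorts the 8025 effect exceeded the MC38 effect there by 2.28 (adjusted p = 0.000939). At the other regions named by p this contrast did not pass (limma, adjusted p from 0.197 to 0.977). It was 0.31 at Rab33b, 0.17 at Tmx3, -0.08 at Adgrl2 and 1.45 at Cpb2. On the lower side it was -0.05 at Atp6v0e, -0.74 at Orai1, 0.57 at Pitpnm2 and -0.61 at Apob.

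Rab33b, a small GTPase of Golgi and autophagosome traffic, had a promoter region (chr3:51483816-51484216) with 118, 154, 148 and 152 tags in C26 PBS and 245, 261, 207 and 228 in pre-cachexia. NC26 PBS had 204, 187, 177 and 214 and NC26 tumor libraries 227, 166, 208 and 203. The lowest group was C26 PBS, and the pre-cachexia libraries overlapped both NC26 groups. The pre-cachexia rise was 0.72 ± 0.09 (adjusted p = 5.2e-06) and the NC26 effect 0.03 ± 0.09. Its difference was 0.68 ± 0.13 (adjusted p = 0.23, the lowest outside the 2 called). It passed without NC26 tumor replicate 1 (adjusted p = 0.0425), with library weights (0.0275) and in DESeq2 (0.0456).

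The intergenic region nearest Adgrl2, an adhesion receptor gene, had 6.15, 7.61, 4.68 and 12.6 tags in C26 PBS, 17.0, 28.6, 30.8 and 31.3 in pre-cachexia, 14.2, 13.5, 9.10 and 16.9 in NC26 PBS and 17.4, 23.8, 11.4 and 9.83 with NC26 tumors. Its difference was 1.56 ± 0.33 (adjusted p = 0.457), and the PBS groups differed by -0.87 (C26 minus NC26). An intergenic region nearest Tmx3, a thioredoxin of the endoplasmic reticulum, had 77.6 to 89.9 tags in pre-cachexia and 38 to 68.7 in the other 12 libraries, and differed by 1.02 ± 0.21 (adjusted p = 0.457). Cpb2 codes for a plasma carboxypeptidase that slows clot lysis and is made by hepatocytes. A Cpb2 region at chr14:75237112-75237512, under the median signal and chosen after its values were seen, had 33.1, 21.6, 46.8 and 14.5 tags in pre-cachexia and 2.06 to 7.80 in the other 12 libraries. It rose by 2.32 ± 0.38 (adjusted p = 0.00033) with an NC26 effect of -0.21 ± 0.38, and differed by 2.53 ± 0.54 (adjusted p = 0.457).

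On the lower side the regions with the lowest p lay in introns or between genes. The one nearest Atp6v0e, a subunit gene of the vacuolar proton pump, had 18.2, 17.5, 21.9 and 16.5 tags in C26 PBS and 5.85, 7.62, 6.50 and 4.63 in pre-cachexia. NC26 PBS had 18.6, 15.1, 12.7 and 10.3 and NC26 tumor libraries 16.1, 16.4, 12.2 and 11.2. It fell in pre-cachexia by 1.46 ± 0.23 (adjusted p = 0.000114) with an NC26 effect of -0.01 ± 0.23, and differed by -1.45 ± 0.32 (adjusted p = 0.457). An intronic region of Orai1, the pore of store-operated calcium entry, had 16.5 to 20.9 tags in C26 PBS, 6.99 to 12.2 in pre-cachexia, 10.5 to 13.3 in NC26 PBS and 13.7 to 19.2 with NC26. It fell in pre-cachexia by 1.03 ± 0.21 (adjusted p = 0.00542) and differed by -1.37 ± 0.30 (adjusted p = 0.457). At the Pitpnm2 and Apob regions neither arm passed alone, and the differences were -1.52 ± 0.34 (adjusted p = 0.457) and -1.72 ± 0.39 (adjusted p = 0.604). The PBS groups (C26 minus NC26) differed by 0.27 at Atp6v0e, 0.6 at Orai1, 0.67 at Pitpnm2 and 1.04 at Apob. The Apob region lay 157219 bp from the start of this gene for the structural protein of lipoproteins, at 0.909 to 8.66 tags in all 16 libraries. It reached the median signal only through the C57BL/6N groups, whose means were 28.7 to 48 tags, so its difference rests on low signal.

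Lists of genes were described over all regions whose nearest start site was that of a member. No list region was called in the difference. Acute phase genes (33 genes, 501 regions) had a median difference of 0.18, against 0.05 over all regions, and 54 of their regions were higher (10.8%, against 3.77% of all regions) and 8 lower (1.6% against 1.84%) at unadjusted p under 0.05. The median over all regions moved with the setting, to 0.012 without NC26 tumor replicate 1, -0.006 in edgeR and 0.003 in DESeq2, and that of acute phase genes was then 0.194, 0.182 and 0.198. With each library left out in turn it was 0.119 to 0.251 for acute phase genes, lowest without pre-cachexia replicate 3. In pre-cachexia 58 rose (11.6%, against 1.05% of all regions) and 1 fell (0.2% against 0.258%). With NC26 8 rose and 1 fell, where 0.137% and 0.0406% of all regions did. Per library, the median deviation of these 501 regions from the PBS mean was 0.41, 0.16, 0.54 and 0.20 in pre-cachexia replicates 1 to 4 and 0.19, 0.27, 0.20 and 0.09 in the NC26 tumor libraries. Replicates 2 and 4 were within the NC26 range and replicates 1 and 3 above it, as at Lcn2.

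Receptors and inhibitors of cytokine signaling followed at lower levels. Cytokine receptor genes (389 regions) had a median difference of 0.11. At unadjusted p under 0.05, 26 regions were higher (6.68%, against 3.77% of all regions) and 7 lower (1.8% against 1.84%). In pre-cachexia 12 rose (3.08%, against 1.05% of all regions) and 0 fell. With NC26 2 rose and 3 fell, where 0.137% and 0.0406% of all regions did. This median was 0.064 without NC26 tumor replicate 1. Feedback inhibitors (324 regions) had a median difference of 0.11 (19 and 3, or 5.86% and 0.926%). Of these regions 15 rose (4.63%, against 1.05% of all regions) and 1 fell (0.309% against 0.258%) in pre-cachexia. Of the same 324 regions 4 rose and 0 fell with NC26, where 0.137% and 0.0406% of all regions did. A region 6594 bp from Socs2, an inhibitor of growth hormone and cytokine receptors, rose in both arms, by 1.75 ± 0.18 and 0.85 ± 0.18 (adjusted p = 2.07e-07 and 0.027). Its difference was 0.91 ± 0.26 (adjusted p = 0.802), and the PBS groups differed by -0.77. STAT3, NF-kB and C/EBP factor genes (230 regions) had a median difference of 0.06 (11 and 1, or 4.78% and 0.435%). In this list an intronic Bcl3 region had 44.6 to 92.7 tags in pre-cachexia and 41.5 to 54.2 with NC26, against 19.1 to 24.9 and 25.7 to 28.2 in the PBS groups. It rose in both arms, by 1.42 ± 0.17 and 0.79 ± 0.17 (adjusted p = 1.54e-06 and 0.0283), with a difference of 0.62 ± 0.24 (adjusted p = 0.874). These 2 regions were picked by their pre-cachexia p, which raises the difference.

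AP-1 and immediate early genes (220 regions) had a median difference of 0.00. At unadjusted p under 0.05, 1 region was higher (0.455%, against 3.77% of all regions) and 1 lower (0.455% against 1.84%). Their median effects were 0.07 and 0.09, and the tumor libraries deviated by 0.05 to 0.09 in pre-cachexia and by 0.06 to 0.17 with NC26. Genes of metal and iron handling (250 regions) had a median difference of 0.06 (10 and 3, or 4.0% and 1.2%). Of these regions 12 rose in pre-cachexia (4.8%, against 1.05% of all regions) and 3 with NC26, where 0.137% of all regions did. Interferon and antigen presentation genes (177 regions) had 0.10 (10 and 3, or 5.65% and 1.69%). This median was 0.047 without C26 PBS replicate 4, 0.057 without C26 PBS replicate 1, 0.058 without NC26 PBS replicate 3 and 0.033 in edgeR. An intronic region of Nlrc5, the activator of MHC class I genes, had 11.0 to 30.6 tags in pre-cachexia and 3.13 to 13.3 in the other 12 libraries, with overlap in 1 pre-cachexia library. It rose by 1.73 ± 0.29 in pre-cachexia (adjusted p = 0.000297), and the difference was 1.38 ± 0.40 (adjusted p = 0.864). This Nlrc5 region was chosen after its values were seen, by its pre-cachexia p, which raises the difference.

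Metabolic lists had medians near or below 0 in both arms. Urea cycle and amino acid genes (596 regions) had median effects of -0.17 and -0.18, lipogenesis and glycolysis genes (20 genes with a region) -0.11 and -0.11, and xenobiotic genes (325 regions) -0.11 and -0.15. Of the latter 10 fell in pre-cachexia (3.08%, against 0.258% of all regions). Their median differences were 0.02, -0.01 and 0.05, close to the 0.05 of all regions. Genes of fatty acid oxidation (300 regions) had a median difference of 0.12. At unadjusted p under 0.05, 16 were higher (5.33%, against 3.77% of all regions) and 1 lower (0.333% against 1.84%). Their deviations were -0.04 to 0.11 in pre-cachexia libraries and -0.10 to -0.04 with NC26. An intronic region of Cpt1a, the gate of fatty acid entry into mitochondria, had 166 to 188 tags in pre-cachexia and 124 to 181 with NC26, against 91.6 to 140 and 136 to 175 in the PBS groups. It rose in pre-cachexia by 0.60 ± 0.12 (adjusted p = 0.00524), and its difference was 0.59 ± 0.18 (adjusted p = 0.864), of which 0.48 lay between the PBS groups. The Cpt1a region was chosen after its values were seen, by its pre-cachexia p, which raises the difference. Cholesterol and bile acid genes (536 regions) had a median difference of 0.11 (35 and 10, or 6.53% and 1.87%). Growth hormone and sex-biased genes (565 regions) had 0.06 (37 and 17, or 6.55% and 3.01%). Of the latter 16 regions fell in pre-cachexia (2.83%, against 0.258% of all regions).

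The remaining lists had median differences of 0.03 for gluconeogenesis and glucocorticoid genes (592 regions, 20 higher and 7 lower), 0.07 for the clock (284 regions, 10 and 7), 0.05 for the integrated stress and unfolded protein response (232 regions, 8 and 2), 0.05 for NRF2 (264 regions, 4 and 4), 0.03 for hepatocyte identity factors (575 regions, 26 and 14) and 0.04 for the cell cycle (201 regions, 5 and 5). The counts are at unadjusted p under 0.05. They make 1.52% to 4.52% higher and 0.862% to 2.49% lower per list, near the 3.77% and 1.84% of all regions. Klf15, a glucocorticoid-induced factor of amino acid breakdown, had a region 1087 bp from its start that fell in both arms, by 0.99 ± 0.19 and 0.88 ± 0.19 (adjusted p = 0.00208 and 0.0271). It had 27.8 to 64.8 tags in pre-cachexia and 35.4 to 60.2 with NC26, against 61.9 to 101 and 68.7 to 95.6 in the PBS groups. The Klf15 region was also chosen after its values were seen, by its pre-cachexia p.

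**Figure D5:**
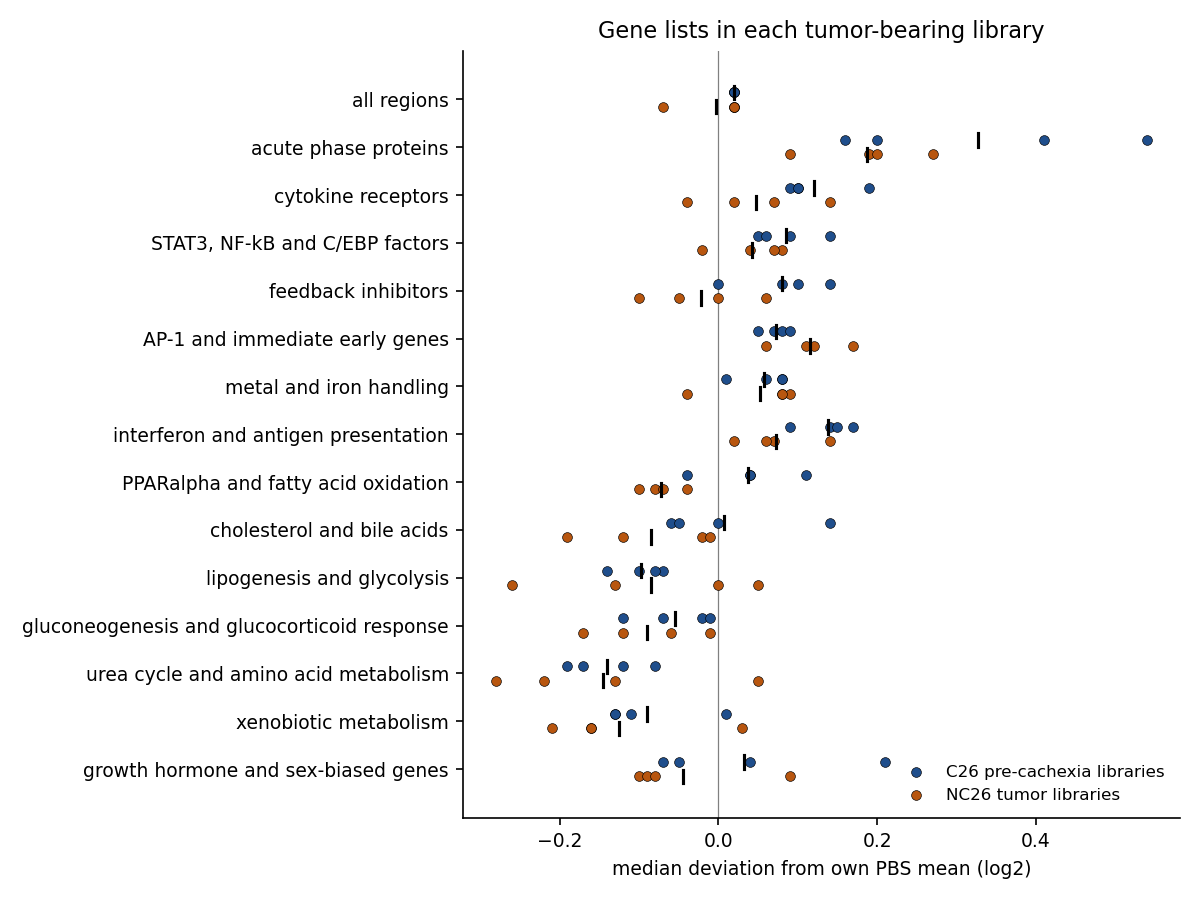
Median log2 deviation of each gene list's regions from the mean of the cohort's own PBS libraries (horizontal axis), 1 point per tumor-bearing library, with the group mean as a bar. Acute phase genes deviate by 0.16 to 0.54 in pre-cachexia and 0.09 to 0.27 with NC26, and urea cycle genes lie below 0 in all but 1 of the 8 libraries.

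Compared directly, pre-cachexia and NC26 tumor libraries differed at 65 regions higher in pre-cachexia (0.0367%) and 4 lower (0.00226%). The PBS groups of the 2 cohorts differed at 0 regions in either direction (0.0%), with 5263 higher (2.97%) and 4445 lower (2.51%) at unadjusted p under 0.05. These 2 direct comparisons were added after values were seen, and in them cohort and tumor cannot be told apart. At the 65 regions the median effects were 0.89 in pre-cachexia and -0.55 with NC26. Of them 21 rose in pre-cachexia (32.3%, against 1.05% of all regions). The tumor libraries that picked these regions also enter both effects, so the opposite signs are largely set by the choice and are a description. The 65 included the Kank1, Cpb2, Tmx3 and Ccnl1 regions and the downstream Mt1 region, which share those libraries and so are no separate finding.

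Totals were 11.68 to 23.42 M tags in 15 of the 16 libraries and 3.47 M in NC26 tumor replicate 1, and 37.34% to 54.86% of tags lay in regions. Without that library the difference gave 3 regions higher and 0 lower. Of 12 hepatocyte marker genes 11 had a promoter region, with a median of 118 normalised tags. Over the 32 regions listed for macrophage markers the median difference was 0.17, with 6 higher (18.8%, against 3.77% of all regions) and 0 lower at unadjusted p under 0.05. Their median deviation was 0.39, 0.01, 0.27 and 0.27 in pre-cachexia replicates 1 to 4 and -0.19 to 0.22 with NC26, and the median difference was -0.006 without NC26 tumor replicate 1 and -0.023 in edgeR. Promoter regions were listed for 4 of 13 macrophage genes (median 3.97 tags), 5 of 13 endothelial, 4 of 10 stellate, 4 of 9 cholangiocyte and 0 of 12 lymphocyte genes. For neutrophils 2 of 10 had one, S100a8 and Elane, and their summed signal was 53.3 to 64.6 tags in pre-cachexia, 33.8 to 46.9 in C26 PBS, 36.4 to 39.5 in NC26 PBS and 36.4 to 49.5 with NC26. No marker promoter was called in the difference, and the part of these cells in the results above was not tested.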

How the data were processed

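Per the submitters' processing notes, the authors aligned reads to mm10 with BWA 0.7.5a-r405 and used SAMtools and HOMER, with no further settings recorded there. Per the file headers, the authors counted tags in a window of 400 bp per merged peak and brought every library to 10 M tags, which is the signal analysed here, and the distance to the nearest start site and the peak score are the authors' own. The score was not used in any test. Each value times its library total gave whole read ends (a weight of 0.5 tag each) for 100% of values within 0.05.

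Values were rescaled by TMM factors and tested as log2(value + 1) with limma-trend and robust empirical Bayes, in 1 model of all 35 libraries with 9 groups and the library series as a covariate. The pseudocount shrinks log2 differences of weak regions. Library names form series A and B, with C26 wholly in A and NC26 replicates 1 and 2 in A and 3 and 4 in B. The filterByExpr rule (minimum count 10, minimum total 15) removed 653 regions, and p-values were adjusted over the 177251 kept (Benjamini-Hochberg, 0.05). The 95% intervals are from the same model. Replicates of a group had Spearman coefficients of 0.836 to 0.933 and differed 2.39 to 4.51 times as much as independent counting of read ends would give, so none was merged. Precision rests on 4 animals per group. A replicate number was shared between groups, but deviations of same-numbered libraries correlated at -0.062 to 0.167, so the numbers were not taken as pairs.

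Regions named were the 4 lowest p in each direction with at least median signal, 1 per gene and no predicted genes or small RNAs, since under 4 passed, and the promoters of 24 panel genes. Others are said to have been chosen after their values were seen. Some regions examined are not reported here. The comparison, panel and lists were chosen with earlier results of these data known. Alternatives were RLE factors, the authors' scaling alone, no filter, pseudocounts 0.5 and 4, edgeR and DESeq2 on read ends, only the 16 libraries, no library series, a replicate block, promoter share as a covariate, library weights and each library left out. Scripts were tested on simulated data. Software used was limma 3.58.1, DESeq2 1.42.0 and edgeR 4.0.16 under R 4.3.3 with the data.table package (1.17.8), and numpy 2.4.6, pandas 2.3.3 and matplotlib 3.10.9 under Python 3.11.15.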

Additional observations from a re-analysis of the deposited data

Results flagged for a closer look

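The difference between the arms passed the test at the regions nearest Ccnl1 (3.65 on the log2 scale) and Slc35a3 (3.55). Over 69 regions examined in the 4 groups of 4 libraries, 15 of 276 groups had 1 library far from the other three by a criterion that chance alone meets in about 1 of 20 groups. In C26 PBS these were a high library at Apob (8.66 normalised tags), at the Stat3 promoter (268), at the upstream Fos region (84.9) and at Cyp7b1 (35.9), and a low one at Rab33b (118), at the Fetub promoter (110) and at the Fos promoter (36.9). In pre-cachexia the Per2 promoter had a low library (193) and the Gsta3 region a high one (33.4). In NC26 PBS a high library was found at the Irf1 promoter (52.1) and at the neighbouring Irf1 region (87.3), at the Mup3 promoter (79.8) and at Mat1a (77.3), and a low one at the Cebpb promoter (135). With NC26 tumors the Fgl1 promoter was high in 1 library (26.8).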

How the results depend on the processing

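The count of 2 regions higher was also found with RLE factors, the authors' scaling alone, no filter, a pseudocount of 0.5, no library series and promoter share as a covariate, each time the same 2. It was 0 with a pseudocount of 4, 0 with only the 4 groups compared, 4 with library weights, 1 in edgeR and 7 in DESeq2, which also called 3 lower. Leaving out 1 library gave 0 to 3 higher and 0 to 1 lower. Regions called in pre-cachexia were 6006 with library weights and 4690 in DESeq2 (2323 in the reported model) and ranged from 912 to 2600 with 1 library left out. Those called with NC26 were 135 with only the 4 groups compared, 134 with library weights and 145 in edgeR (315 in the reported model), and 77 to 1148 with 1 library left out. For 8025 minus MC38 the count was 1799 with the authors' scaling alone, 4715 with library weights and 5969 in DESeq2 (3002), and 1122 to 3667 with 1 library left out. The cause was not tested.

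A replicate block, which treats libraries of 1 number as a set, kept the same 2 regions higher and 0 lower, and gave 2112 regions in pre-cachexia and 263 with NC26. In no comparison did it move a count by over 1.5 times, and the numbers were not taken as pairs.

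The median difference over all regions (0.05) was 0.012 to 0.058 with 1 library left out and -0.006 in edgeR. Differences near 0 changed sign. Lbp (0.02) was -0.0005 with RLE factors, -0.02 with the authors' scaling alone, -0.04 with library weights and -0.15 to 0.16 with 1 library left out. Cebpb (-0.02) was 0.05 with library weights and -0.11 to 0.1 with 1 left out, and the neighbouring Irf1 region (-0.05) was 0.03 with library weights. With 1 library left out the sign also changed for Tnfrsf1a (-0.41 to 0.03), this Irf1 region (-0.16 to 0.02), Klf15 (-0.31 to 0.09) and the intronic Per2 region (-0.3 to 0.0008).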
